A study of Oryctolagus cuniculus with 6 samples.

Results

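Stained inflammatory cells were counted by microscopy in sections of human trachea, in tissue called native and in tissue called epithelial malfunction trachea. All 24 counts deposited for this experiment were taken, 6 per tissue condition for each of 2 stains, myeloperoxidase (MPO) and CD86. Each count is a number of stained cells per high-power field, the area seen through a microscope at high magnification. The experiment stands apart from the 6 rabbit tracheal RNA libraries of the same series, 3 from a blank group with an epithelial defect and 3 from a group with the same injury and the LA@PA-TA@C hydrogel, collected on day 14. The title of the series names Janus hydrogels, which have unlike faces, and the repair of epithelial malfunction in the trachea. The stained cell counts contrast tissue named native with tissue named epithelial malfunction trachea, and no hydrogel is named for them. Whether the malfunction is the one in the title is not stated.

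The file headers give the tissue conditions by name only, as native human trachea and epithelial malfunction trachea. The second name gives no species, and that tissue is taken as human in every comparison here. What the epithelial malfunction was and where the tissue came from are not stated in the headers. Nor are the area of a field, the method of counting and the number of persons. Several fields may come from 1 person or 1 section. A field is therefore the unit of every comparison here, and p-values measure the spread between fields, which may be smaller than the spread between persons.

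The airway epithelium is the barrier between inhaled air and the tracheal wall, and its loss opens the wall to microbes and debris. Neutrophils are among the first leukocytes to enter injured airway tissue. MPO is stored in their azurophilic granules, and monocytes hold smaller amounts of it. The enzyme turns hydrogen peroxide and chloride into hypochlorous acid. CD86, also called B7-2, is a surface protein of macrophages, dendritic cells and activated B cells, which binds CD28 and CTLA-4 on T cells. It is widely used as a marker of macrophages in the pro-inflammatory, M1 state. Neither stain defines 1 cell type alone, and the deposited counts name no second marker with either. The cells are therefore called MPO+ and CD86+ below.

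Cells of both kinds were more frequent in epithelial malfunction trachea. The mean number of MPO+ cells rose 7.75-fold, from 2.67 ± 1.75 per field in native trachea to 20.7 ± 9.65 in epithelial malfunction trachea (SD, n = 6 fields each). CD86+ cells rose 10.5-fold, from 0.667 ± 1.21 to 7.00 ± 2.45 per field (SD, n = 6 fields each). For each stain, every epithelial malfunction field held more stained cells than every native field, so that the higher value was in malfunction tissue in 36 of 36 pairs of fields. Both differences passed an exact two-sided permutation test over the 924 splits of the 12 fields (p = 0.00216, also 0.00216 after Benjamini-Hochberg adjustment over the 2 comparisons). This is the smallest p that 6 fields against 6 can give, so the p-values cannot rank the stains.

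**Figure D1:**
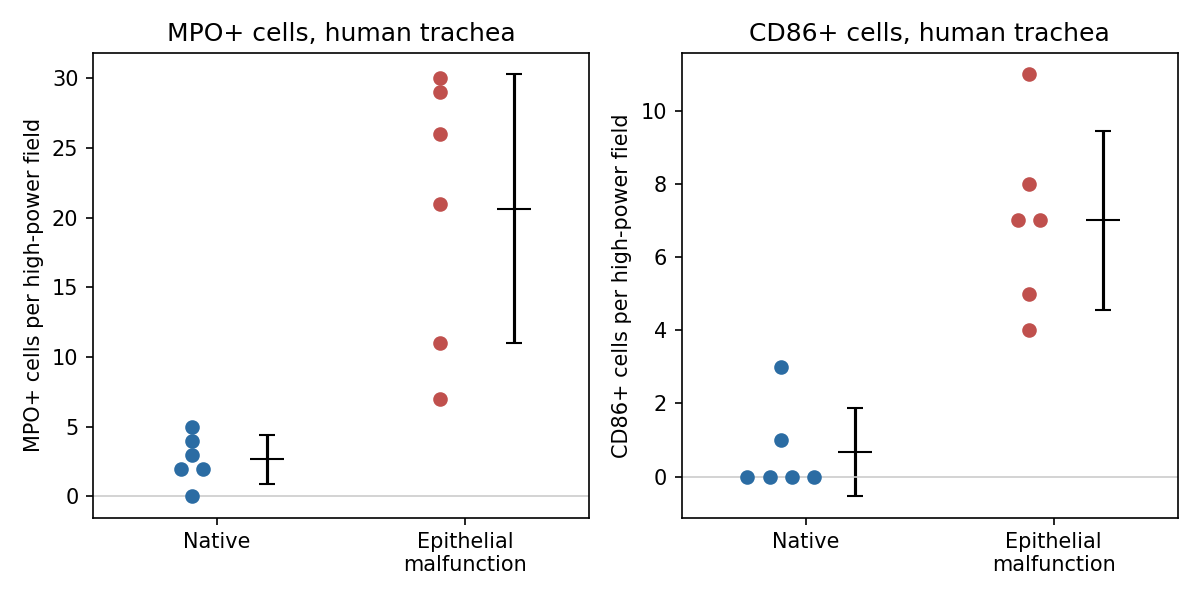
Stained cells per high-power field in native human trachea and epithelial malfunction trachea, MPO+ on the left and CD86+ on the right. The vertical axes are linear, with different ranges. Points are fields, with equal values set side by side, and black bars are the mean ± SD of 6 fields; native fields lay at 0 to 5 MPO+ and 0 to 3 CD86+ cells, and malfunction fields at 7 to 30 and 4 to 11.

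MPO+ cells, the neutrophil-associated population, were present in native trachea at low number. Native fields held from 0 to 5 MPO+ cells with a median of 2.5, and 1 of 6 fields held none. The total over the native fields was 16 cells. Epithelial malfunction fields held from 7 to 30 MPO+ cells with a median of 23.5 and a total of 124. The groups did not overlap, but the interval between them was narrow, with 2 cells between the highest native and the lowest malfunction field. The malfunction fields lay in a lower and an upper range, 2 of them from 7 to 11 and 4 of them from 21 to 30, with no value between 11 and 21. Nothing in the headers tells these fields apart. The lower ones still held more MPO+ cells than any native field.

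The difference in means was 18.0 MPO+ cells per field. Its 95% interval was 8.00 to 26.5, from inversion of the exact permutation test under a constant shift of all fields. Such a shift takes the spread as equal in both tissues, but the SDs were 1.75 in native and 9.65 in malfunction fields. The coverage of the interval is therefore approximate. Inversion with an unequal-variance statistic, under the same shift, gave the same limits. The difference in medians was 21.0 cells (exact permutation test, p = 0.0130). The difference was 1.87 times the SD among malfunction fields, the wider of the groups. From the totals alone, the fold carried an exact 95% interval of 4.59 to 14.0, which covers counting error only and not the spread between fields.

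CD86+ cells, the marker of antigen-presenting and M1-type cells, were close to absent in native trachea. Of the 6 native fields, 4 held none, a share of 66.7% (exact Clopper-Pearson 95% interval 22.3% to 95.7%). The native total was 4 cells, and 1 field held 3 of these, 75.0% of the total. The native median was therefore 0, with values from 0 to 3. Epithelial malfunction fields held from 4 to 11 CD86+ cells, with a median of 7.00 and a total of 42, and none was without a CD86+ cell. The groups were adjacent without overlap, with 1 cell between the highest native and the lowest malfunction field.

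The difference in means was 6.33 CD86+ cells per field, with a 95% interval of 4.00 to 9.00 from the same inversion. Here too the spread was taken as equal, but the SDs were 1.21 in native and 2.45 in malfunction fields. The difference in medians was 7.00 cells (exact permutation test, p = 0.0130), and the difference in means was 2.59 times the SD among malfunction fields. The 10.5-fold value rested on a small native total, and its exact interval for counting error was 3.81 to 40.3. Without the native field that held 3 cells, the ratio was 35.0, with 1 native cell left and an interval for counting error of 5.95 to 1415. The difference in cells per field was less affected and was 6.80 without that field. With native CD86+ cells this few, the size of the fold was poorly set at this depth. With any single field left out, the fold ran from 8.75 to 35.0 and the difference from 5.53 to 6.93 cells per field. Such ranges do not measure precision, and the 95% interval of the difference was the wider 4.00 to 9.00.

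**Figure D2:**
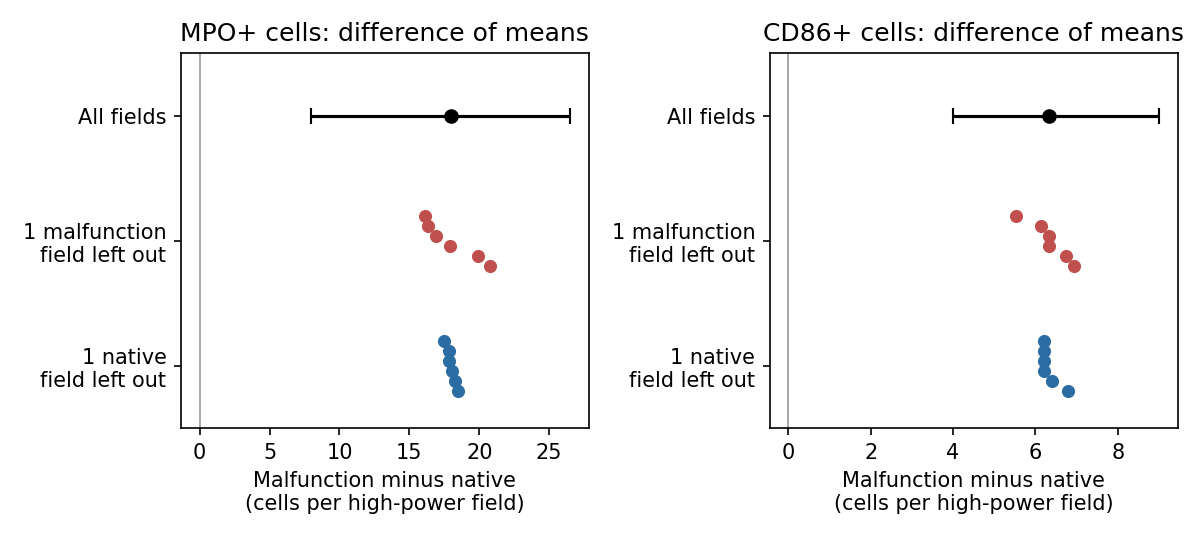
Difference of means, epithelial malfunction minus native, in cells per high-power field (horizontal axes, linear, with different ranges). The black point and bar show all fields with the 95% interval from the permutation test, and coloured points show the 12 refits per stain with 1 field left out, which lay between 16.1 and 20.7 for MPO+ and between 5.53 and 6.93 for CD86+ cells.

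The stains differed in how fields of 1 condition varied. If cells fell independently and at 1 common density, the variance between fields would be about equal to the mean. For MPO+ cells this ratio of variance to mean was 1.15 in native trachea and 4.50 in epithelial malfunction trachea, where the variance was 93.1. For CD86+ cells it was 2.20 in native trachea, where it rested on a total of 4 cells, and 0.857 in malfunction trachea. The SD among malfunction fields was 5.51 times that among native fields for MPO+ cells and 2.02 times for CD86+ cells. Relative to the mean the order was the opposite: the coefficient of variation of MPO+ cells was 65.7% in native and 46.7% in malfunction fields, and that of CD86+ cells was 182% and 35.0%. These values describe 6 fields each and were not tested.

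**Figure D3:**
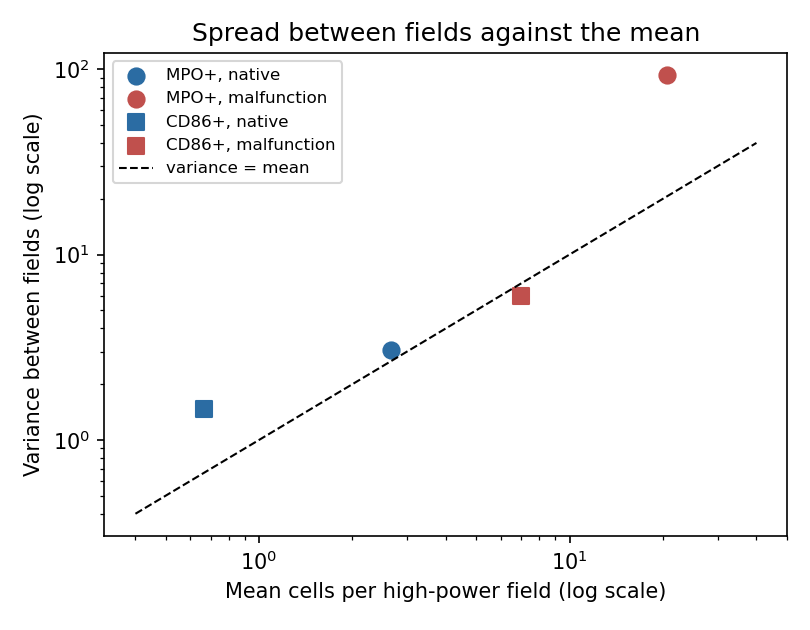
Variance between fields against the mean number of stained cells per high-power field, both on log scales, for the 2 stains (circles MPO+, squares CD86+) in native (blue) and epithelial malfunction (red) trachea, 6 fields per point. On the dashed line the variance equals the mean; MPO+ cells in malfunction tissue lay above it at a ratio of 4.50, and CD86+ cells in malfunction tissue lay at 0.857.

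MPO+ cells outnumbered CD86+ cells in both tissue conditions. Over all fields, 16 MPO+ and 4 CD86+ cells were counted in native trachea, and 124 and 42 in epithelial malfunction trachea. CD86+ cells were thus 20.0% of the 20 stained cells in native trachea (exact Clopper-Pearson 95% interval 5.73% to 43.7%) and 25.3% of 166 in malfunction trachea (18.9% to 32.6%). The interval of the native share holds the malfunction share. Both intervals take each cell as independent and cover counting error only, not the spread between fields. A change in the mix of the populations was not tested. The numbers 7.75-fold and 10.5-fold therefore do not show that one population rose more than the other, and the difference between the folds was not tested. In cells per field the MPO+ difference was the larger, 18.0 against 6.33, with intervals of 8.00 to 26.5 and 4.00 to 9.00. These intervals overlap, but overlap is no test, and the contrast between the 2 differences was not tested. The headers do not say whether the MPO and CD86 counts came from the same sections, so the counts were not matched field by field, and a cell with both proteins would be counted under each stain.

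In the authors' deposited table, a two-tailed unpaired comparison of the same counts is given with p = 0.0011 for MPO+ and p = 0.0002 for CD86+ cells, and both are marked as significantly different. These p-values equal, to the digits deposited, those of the form of the test that takes the spread to be equal in both tissues. The SDs of the fields were unequal, as given above.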

How the data were processed

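The authors deposited numbers of stained cells per high-power field. The file headers name the tissues native human trachea and epithelial malfunction trachea, and the latter was taken as human. The same sheet is held in 6 workbooks that are otherwise about rabbit tissue, the 6 copies were identical, and 1 was read. Values are whole-number counts with no normalization, as deposited. How sections were stained, imaged and counted is not stated in the headers or labels. All 24 values were kept. The total of stained cells per group was 4 to 124, and both counting error and the spread between fields limit the precision.

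Conditions were compared within each stain by the difference of means, with an exact two-sided permutation test (SciPy 1.17.1, NumPy 2.4.6, Python 3.11.15) and Benjamini-Hochberg adjustment over 2 comparisons at a threshold of 0.05. Intervals at 95% came from inverting that test in steps of 0.01 cells. Intervals of totals, ratios and shares are exact and cover counting error only. Alternatives used medians, ranks, log2 values with a pseudocount of 1 or 0.5, square roots, an unequal-variance statistic, the ratio of means, omission of values of 0, and each field left out. Every stain and condition in the sheet is reported. The stains and tests were chosen with earlier results of the series known. The rabbit RNA libraries were not used. Figures were drawn with matplotlib 3.10.9.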

Additional observations from a re-analysis of the deposited data

Results flagged for a closer look

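Among native fields, the highest CD86+ count, 3 cells, lay far from the next, 1 cell: the gap was 0.667 of the whole range, above Dixon's 95% critical value of 0.625 for 6 values. The other 3 groups of fields held no such value. Chance flags about 1 in 20 groups, and values as low as these, with 4 of 6 fields at 0, do not meet the normal distribution that the rule assumes. Without this field, native trachea held 1 CD86+ cell in the other fields, the difference between tissues was 6.80 cells per field, and the exact permutation p was 0.00433, the smallest that 5 fields against 6 can give.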

How the results depend on the processing

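Each difference was recomputed under 20 alternatives, of which the square root scale was added after seeing the data. For MPO+ cells, epithelial malfunction trachea was higher and past the threshold in 20 of 20, and for CD86+ cells it was higher in 20 and past the threshold in 19. Because the groups do not overlap, the rank, log2, square root, ratio and unequal-variance alternatives and those with 1 field left out return the smallest p they allow, so these numbers are no measure of stability. The CD86+ exception was the omission of values of 0, which left 2 native fields against 6: the difference was 5.00 cells per field at an exact permutation p of 0.0714, the smallest that this number of fields allows. With 1 field left out, the difference was 16.1 to 20.7 MPO+ cells and 5.53 to 6.93 CD86+ cells, each at an exact permutation p of 0.00433. With log2(value + 1) the differences of mean log2 values were 2.60 and 2.44, and with log2(value + 0.5) 2.89 and 3.11, so the order of the stains changed with the pseudocount. The difference in the CD86+ share was 5.30 percentage points, and -13.2 from means over fields above 0 (added after seeing the data). That setting raises the native share by construction, since 4 of 6 native fields were at 0 for CD86+ but 1 of 6 for MPO+ cells. No malfunction field was at 0, so the malfunction share did not change. No paired analysis was possible because the headers number no fields and tie none together across conditions. Ratios within a row were not computed for the same reason. The native CD86+ level rests on 4 cells in all (exact Poisson 95% interval 1.09 to 10.2).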
